A study of Homo sapiens with 30 samples.

Results

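The p53 target genes described here are 32 genes that the literature places under direct control of the tumour suppressor p53, and they were found in the gene table by symbol. Each of the 32 symbols matched 1 row of the 57373 genes in the table, and 31 had enough counts to be tested among 18485 genes. The gene left untested was SPATA18, a gene of mitochondrial quality control, with 29 counts over the 30 libraries, 0 counts in 13 of them and at most 4 in any. RNA came from U2OS, a human osteosarcoma line that carries a truncated form of the p53 phosphatase gene PPM1D and a silenced CDKN2A locus. There were 6 groups of 5 libraries, labelled as biological replicates. The dhelix+CHIR group carried a plasmid for human FOXP2 lacking residues 264 to 272, here called dhelix, in cells given CHIR99021. The WT+CHIR group carried the wild-type FOXP2 plasmid in cells given the same compound. The CHIR group had the compound and no FOXP2 plasmid. The dhelix and WT groups carried the corresponding FOXP2 plasmid without the compound, and the mock group was mock-transfected. Plasmid was used at 500 ng for 48 h, and CHIR99021 was added at 5 µM 72 h before transfection. The labels do not say whether mock or CHIR cells took up an empty plasmid, so FOXP2 and the uptake of plasmid DNA cannot be told apart in any comparison of a FOXP2 group with its control.

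p53 is a transcription factor that is held at a low level by MDM2, the ubiquitin ligase that its own activity induces, and that accumulates when DNA is damaged, when ribosome assembly fails or when oncogenes are active. It binds pairs of a short half-site and raises genes that halt the cell cycle, start apoptosis, repair DNA, supply nucleotides and end the response. FOXP2 is a forkhead transcription factor, mostly described as a repressor, and CHIR99021 inhibits the GSK3 kinases, so that β-catenin is spared from breakdown and Wnt target genes rise. The level of these targets is a common readout of p53 activity, but each of them also answers to other factors.

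Promoter sequence was at hand for 25 of the 32 members, in 37 windows of 300 bases (250 before and 50 after a transcription start, RefSeq, GRCh38.p14). The windows were searched for the p53 half-site consensus, a palindrome of 10 bases (3 purines, C, 2 of A or T, G, 3 pyrimidines) that reads the same on both strands. It occurred in 7 of the 37 member windows (18.9%) and in 2329 of 35116 windows of all genes (6.63%). The stretches below are shown because they hold those 7 matches, with the half-site in capitals and each read 5′ to 3′ on the strand of its gene.
DDB2: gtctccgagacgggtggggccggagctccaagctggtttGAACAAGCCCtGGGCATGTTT
FDXR: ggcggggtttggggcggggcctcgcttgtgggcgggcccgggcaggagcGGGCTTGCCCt
SESN1: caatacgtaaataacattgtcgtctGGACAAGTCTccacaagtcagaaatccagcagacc
PLK2: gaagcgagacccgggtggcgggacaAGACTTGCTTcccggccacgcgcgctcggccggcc
RPS27L: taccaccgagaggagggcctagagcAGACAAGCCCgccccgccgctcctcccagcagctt
FAS: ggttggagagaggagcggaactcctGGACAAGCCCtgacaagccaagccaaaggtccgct
AEN: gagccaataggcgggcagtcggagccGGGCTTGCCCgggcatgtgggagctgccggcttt
They lie at chr11:47214940-47214999 (plus strand, DDB2), chr17:74872995-74873054 (minus strand, FDXR), chr6:109009003-109009062 (minus strand, SESN1) and chr5:58460184-58460243 (minus strand, PLK2). The others lie at chr15:63157502-63157561 (minus strand, RPS27L), chr10:88991284-88991343 (plus strand, FAS) and chr15:88621280-88621339 (plus strand, AEN). DDB2 was the 1 member with a pair of half-sites, separated by 1 base, a spacing within the 0 to 13 bases allowed for a full site. Such a pair occurred in 10 windows of all genes (0.0285%). The pair in DDB2 began 5 bases downstream of the start, and the half-sites of FDXR and AEN began 11 and 34 bases upstream of it. Many known p53 sites lie in introns or farther upstream, outside these windows, and a match or its absence is a description of the letters only.

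Libraries held 15755842 to 29466652 counts. FOXP2 averaged 13500 ± 917 CPM (counts scaled to library size) in dhelix+CHIR and 15300 ± 983 CPM in WT+CHIR cells. Without CHIR it averaged 5320 ± 640 CPM in dhelix and 7080 ± 779 CPM in WT cells. Its level was 0.504 ± 0.462 CPM in CHIR and 0.898 ± 0.284 CPM in mock cells. Throughout, ± gives the SD (n = 5) after a level in CPM and the SE after a log2 change. The level in FOXP2 cells includes RNA from the plasmid and was higher with CHIR than without. AXIN2, a direct β-catenin target, averaged 145 ± 15.7 CPM in CHIR and 21 ± 1.01 CPM in mock cells. Of the markers of bone and mesenchymal cells, VIM, SPARC, COL1A1 and RUNX2 were present in every group, while SP7 and BGLAP were near 0. The 5 tested genes of that list did not share a direction. ALPL was 4-fold higher with dhelix and 6.39-fold higher with WT than in mock cells, and VIM was higher by 0.07 ± 0.03 with dhelix and 0.39 ± 0.03 with WT on the log2 scale. SPARC changed by -0.85 ± 0.04 with dhelix and -1.23 ± 0.04 with WT, and COL1A1 by -2.48 ± 0.11 with dhelix and -2.58 ± 0.11 with WT. RUNX2 averaged 9.75 ± 0.614 CPM in dhelix and 7.91 ± 1.04 CPM in WT cells, against 58.3 ± 1.91 CPM in mock cells. The blood marker PTPRC was at 2.02 CPM or less in every library, CD3D lay at 5.15 to 5.85 CPM in dhelix cells and ITGAM at 15.7 to 17.1 CPM in WT+CHIR cells, against at most 0.147 and 0.179 CPM in mock cells. The part of these genes in the results below was not tested. CHIR replicate 1 stood apart from the other 4 CHIR libraries in many members, and an earlier analysis of these data also found dhelix replicate 5 and WT+CHIR replicate 4 apart from their groups. Values without CHIR replicate 1 are given beside many of the results that use it. Exons of 11 members (BBC3, CDKN1A, FAS, FBXO22, MDM2, PLK3, POLH, SESN1, TNFRSF10B, TP53I3 and XPC) overlap a gene on the opposite strand. The strand setting of the counting is not given in the sources used here, so reads of such pairs may not have been told apart. Exons of BBC3, MDM2 and PHLDA3 also overlap a gene on the same strand. These overlaps were read from an annotation of GRCh38, while the reads were counted on hg19.

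**Figure D1:**
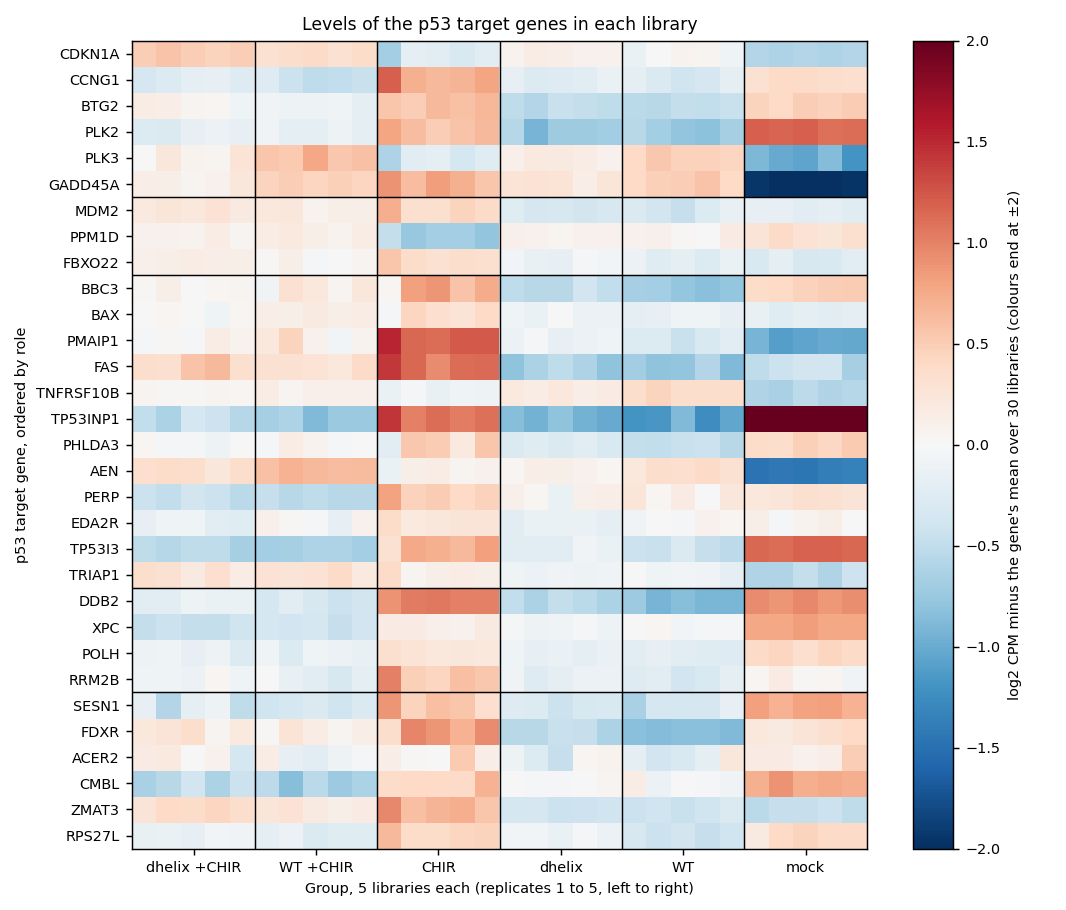
Level of each of the 31 tested p53 target genes (rows, by role) in each of the 30 libraries (columns, 5 a group), as log2 CPM minus the gene's mean over all libraries; red is higher and blue lower. GADD45A and AEN are lowest and TP53INP1 highest in the mock libraries, and CHIR replicate 1 differs from the other CHIR libraries in rows such as CDKN1A and CCNG1.

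The first question was what FOXP2 did to the p53 targets without CHIR. Most members were lower with either form of FOXP2. TP53INP1, PLK2, DDB2 and TP53I3 fell most, while GADD45A, AEN, PLK3, TNFRSF10B, PMAIP1, CDKN1A and TRIAP1 rose. In dhelix against mock cells 9 of 31 members rose, 21 fell and 1 did not pass, where 39.6% of all genes rose, 40.9% fell and 80.5% changed in either direction. In WT against mock cells 7 rose and 19 fell, where 39.9% of all genes rose and 41.6% fell. The median log2 fold change of the members was -0.21 in dhelix and -0.31 in WT cells, against -0.02 over all genes in both. At least 2-fold changes were 3 up and 5 down in dhelix cells (12.8% and 16.7% of all genes) and 3 up and 7 down in WT cells (13.4% and 19.2%). The libraries of the groups did not overlap in 30 members for dhelix against mock (73.2% of all genes) and in 23 for WT against mock (73.0%). These comparisons share the mock libraries, so each is given by its own values. In bulk RNA, fewer cells with a transcript and less of it per cell cannot be told apart.

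**Figure D2:**
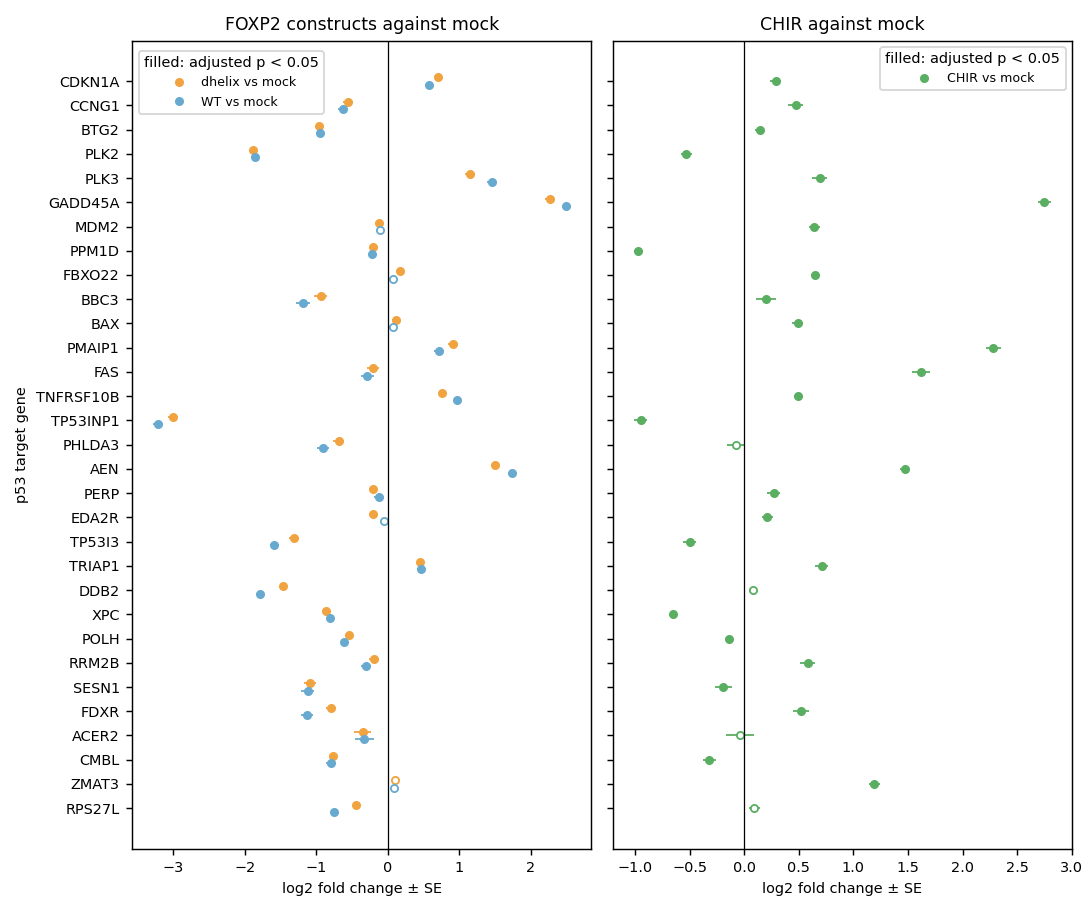
Log2 fold change ± SE of each tested member for dhelix and WT against mock (left) and for CHIR against mock (right); filled points passed an adjusted p of 0.05. TP53INP1 is lowest at -3.01 with dhelix and -3.21 with WT, and GADD45A is highest in all 3 comparisons.

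Among the 6 members that act in cell cycle arrest, 3 rose and 3 fell with either FOXP2. Of all genes 39.6% rose and 40.9% fell with dhelix, and 39.9% rose and 41.6% fell with WT. CDKN1A encodes p21, the inhibitor of cyclin-dependent kinases that carries most of the p53 arrest. It had 216, 228, 226, 220 and 219 CPM in dhelix cells and 189, 205, 216, 215 and 194 CPM in WT cells, against 138, 135, 138, 135 and 138 CPM in mock cells. All 10 FOXP2 libraries were above all 5 mock libraries, and CDKN1A rose by 0.70 ± 0.05 with dhelix and by 0.57 ± 0.05 with WT on the log2 scale (adjusted p = 3.7e-14 and 6.7e-12). GADD45A, a stress sensor that binds PCNA and p21, had 77.4, 78.4, 77.6, 70.9 and 76.4 CPM in dhelix cells and 84.7, 90, 90.6, 95.9 and 85.1 CPM in WT cells, against 16.8, 16.2, 15.1, 15.3 and 16.5 CPM in mock cells. That is 4.78-fold higher with dhelix and 5.6-fold higher with WT (log2 2.26 ± 0.06 with dhelix and 2.49 ± 0.06 with WT). PLK3, a stress-responsive polo-like kinase, had 22.9, 24.3, 24.2, 23.5 and 22.7 CPM in dhelix cells and 28, 31, 29.3, 29.2 and 28.6 CPM in WT cells, against 11.4, 10.6, 10.2, 11.7 and 9.34 CPM in mock cells. Its log2 change was 1.15 ± 0.07 with dhelix and 1.46 ± 0.07 with WT. The groups did not overlap.

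The related kinase PLK2, which works at the G1 to S transition and in centriole duplication, went the other way. It had 42.4, 33.3, 38.8, 38.6 and 38.9 CPM in dhelix cells and 43, 39.4, 36.7, 35.8 and 39.9 CPM in WT cells, against 145, 141, 145, 136 and 137 CPM in mock cells, a log2 change of -1.88 ± 0.05 with dhelix and -1.86 ± 0.05 with WT (adjusted p = 1.1e-27 and 2.1e-27). No FOXP2 library reached the lowest mock library. BTG2, an antiproliferative factor that recruits the CCR4-NOT deadenylase, averaged 21.2 ± 0.742 CPM in dhelix and 21.3 ± 0.675 CPM in WT cells, against 41.3 ± 1.1 CPM in mock cells. CCNG1 (cyclin G1) averaged 102 ± 4.19 CPM in dhelix and 97.4 ± 6.35 CPM in WT cells, against 151 ± 4.01 CPM in mock cells. Both fell in either comparison, with log2 changes of -0.95 ± 0.05 for BTG2 and -0.63 ± 0.07 for CCNG1 in WT cells.

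Of the 12 members that act in cell death or survival, 5 rose and 7 fell with dhelix (39.6% and 40.9% of all genes). With WT 4 rose and 6 fell (39.9% and 41.6% of all genes). TP53INP1, a cofactor that promotes p53 phosphorylation and autophagy, changed most of all members. Its level was 6.11, 5.71, 6.32, 5.75 and 5.48 CPM in dhelix cells and 4.8, 4.94, 6, 4.65 and 5.36 CPM in WT cells, against 45.9, 48.6, 49.2, 47.7 and 45.4 CPM in mock cells. It was 8.04-fold lower with dhelix and 9.23-fold lower with WT (log2 -3.01 ± 0.07 with dhelix and -3.21 ± 0.07 with WT). TP53I3, an oxidoreductase that generates reactive oxygen species, had 33.3, 33.1, 33.2, 36.8 and 35.1 CPM in dhelix cells and 28.5, 28.2, 31.5, 28.1 and 26.9 CPM in WT cells, against 85.1, 83.6, 87.2, 86.9 and 85.8 CPM in mock cells. The groups did not overlap, and the log2 change was -1.32 ± 0.06 with dhelix and -1.59 ± 0.06 with WT. BBC3 (PUMA) neutralises the anti-apoptotic members of the BCL2 family at mitochondria. Its level was 7.4, 7.22, 7.19, 8.1 and 7.48 CPM in dhelix cells and 6.64, 6.58, 6.19, 5.94 and 6.18 CPM in WT cells. Mock cells had 13.6, 13.9, 14.5, 14.9 and 15.1 CPM. BBC3 fell, with a log2 change of -0.94 ± 0.09 with dhelix and -1.19 ± 0.10 with WT. PHLDA3, an inhibitor of AKT, fell, with a log2 change of -0.69 ± 0.08 with dhelix and -0.91 ± 0.08 with WT. FAS, the death receptor, fell, with a log2 change of -0.21 ± 0.08 with dhelix and -0.29 ± 0.09 with WT, with overlapping libraries. PERP, a membrane protein of desmosomes and apoptosis, fell, with a log2 change of -0.21 ± 0.06 with dhelix and -0.13 ± 0.06 with WT.

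Other death genes rose in the same cells. AEN, an apoptosis-enhancing nuclease, had 246, 263, 259, 254 and 245 CPM in dhelix cells and 276, 305, 303, 312 and 296 CPM in WT cells, against 86.2, 89.1, 88.4, 92.1 and 94.4 CPM in mock cells, 2.82-fold and 3.32-fold higher. PMAIP1 (NOXA), a BH3-only protein that binds MCL1, had 67.6, 71.4, 66, 67.5 and 69.1 CPM in dhelix cells and 60.6, 60.8, 53.8, 59.5 and 63.5 CPM in WT cells, against 38.6, 34.2, 35.6, 36.7 and 36.2 CPM in mock cells. Every FOXP2 library lay above every mock library in both genes. PMAIP1 rose by 0.91 ± 0.07 with dhelix and 0.72 ± 0.07 with WT on the log2 scale, and TNFRSF10B, the TRAIL receptor DR5, by 0.75 ± 0.03 with dhelix and 0.96 ± 0.03 with WT. TRIAP1, which restrains apoptosome formation, rose by 0.45 ± 0.05 with dhelix and 0.46 ± 0.06 with WT. BAX, the pore-forming effector of mitochondrial apoptosis, passed the test with dhelix (0.11 ± 0.05, adjusted p = 0.042) and not with WT (0.07 ± 0.05, adjusted p = 0.22). EDA2R, a receptor of the TNF family, was -0.21 ± 0.05 with dhelix and -0.05 ± 0.05 with WT (adjusted p = 0.00017 and 0.39). The death members thus did not share a direction: PMAIP1, TNFRSF10B and AEN rose where BBC3, FAS and PERP fell.

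All 4 repair and nucleotide-supply members fell with both forms of FOXP2 (40.9% of all genes fell with dhelix and 41.6% with WT). DDB2, the damage sensor that starts global nucleotide excision repair, had 28.2, 25.7, 28.4, 27.4 and 25.7 CPM in dhelix cells and 23.9, 20.9, 22, 21.1 and 21.1 CPM in WT cells, against 76.4, 73.3, 77.4, 72 and 75.8 CPM in mock cells. It was 2.77-fold and 3.45-fold lower (log2 -1.47 ± 0.04 with dhelix and -1.79 ± 0.05 with WT, adjusted p = 4.4e-27 and 3.8e-29), and no FOXP2 library overlapped the mock libraries. XPC, its partner in lesion recognition, fell, with a log2 change of -0.86 ± 0.03 with dhelix and -0.81 ± 0.03 with WT. POLH, a translesion polymerase, fell, with a log2 change of -0.54 ± 0.04 with dhelix and -0.61 ± 0.04 with WT. RRM2B, the p53-inducible ribonucleotide reductase subunit, fell, with a log2 change of -0.19 ± 0.07 with dhelix and -0.31 ± 0.07 with WT.

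Of the remaining 6 tested members with roles in stress and metabolism, 5 fell and none rose with either FOXP2. Of all genes 40.9% fell and 39.6% rose with dhelix, and 41.6% fell and 39.9% rose with WT. SESN1, a sestrin that restrains mTORC1, had 7.4, 7.36, 6.56, 7.07 and 7.2 CPM in dhelix cells and 5.66, 6.98, 6.94, 7.01 and 7.87 CPM in WT cells, against 15.7, 14.4, 15.5, 15.6 and 14.4 CPM in mock cells, a log2 change of -1.09 ± 0.08 with dhelix and -1.12 ± 0.09 with WT. FDXR, the mitochondrial ferredoxin reductase, had 41.7, 41.4, 44.6, 44.2 and 39.2 CPM in dhelix cells and 34.2, 33.4, 34.3, 34 and 33.2 CPM in WT cells, against 70.8, 69.3, 72.8, 76 and 80.2 CPM in mock cells, a log2 change of -0.80 ± 0.07 with dhelix and -1.13 ± 0.08 with WT. Neither gene's FOXP2 libraries overlapped the mock libraries. RPS27L, a ribosomal protein paralogue, fell, with a log2 change of -0.44 ± 0.05 with dhelix and -0.76 ± 0.05 with WT, and the hydrolase gene CMBL of -0.77 ± 0.06 with dhelix and -0.79 ± 0.07 with WT. ACER2, an alkaline ceramidase, was low in every group (3.33 ± 0.4 CPM in mock cells) and fell, with a log2 change of -0.35 ± 0.12 with dhelix and -0.33 ± 0.13 with WT. ZMAT3, an RNA-binding splicing regulator, did not pass in either comparison (0.10 ± 0.05 with dhelix and 0.09 ± 0.05 with WT).

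The 3 feedback genes had log2 changes between -0.22 and 0.17 with FOXP2 alone. MDM2 had 99.5, 92.9, 94.2, 90.7 and 94.2 CPM in dhelix cells and 96.5, 91.5, 85.3, 97.6 and 106 CPM in WT cells, against 105, 105, 101, 104 and 99.6 CPM in mock cells. Its log2 change was -0.13 ± 0.05 with dhelix (adjusted p = 0.034, 95% interval -0.23 to -0.02) and -0.11 ± 0.05 with WT (adjusted p = 0.071, 95% interval -0.21 to 0.00). PPM1D (WIP1), the phosphatase that ends p53 signalling, fell, with a log2 change of -0.21 ± 0.04 with dhelix and -0.22 ± 0.04 with WT. FBXO22, an F-box protein of a ubiquitin ligase, was 0.17 ± 0.04 with dhelix (adjusted p = 0.00076) and 0.07 ± 0.04 with WT (adjusted p = 0.13). Calls of small size did not hold under every setting. With dhelix, ACER2, BAX, FAS, MDM2, PERP and RRM2B lost theirs under at least 1 alternative, left-out libraries included, and with WT ACER2 and PERP did. When genes of low counts were kept, ACER2 (-0.28), FAS (-0.14), MDM2 (-0.06) and PERP (-0.15) did not pass with dhelix.

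**Figure D3:**
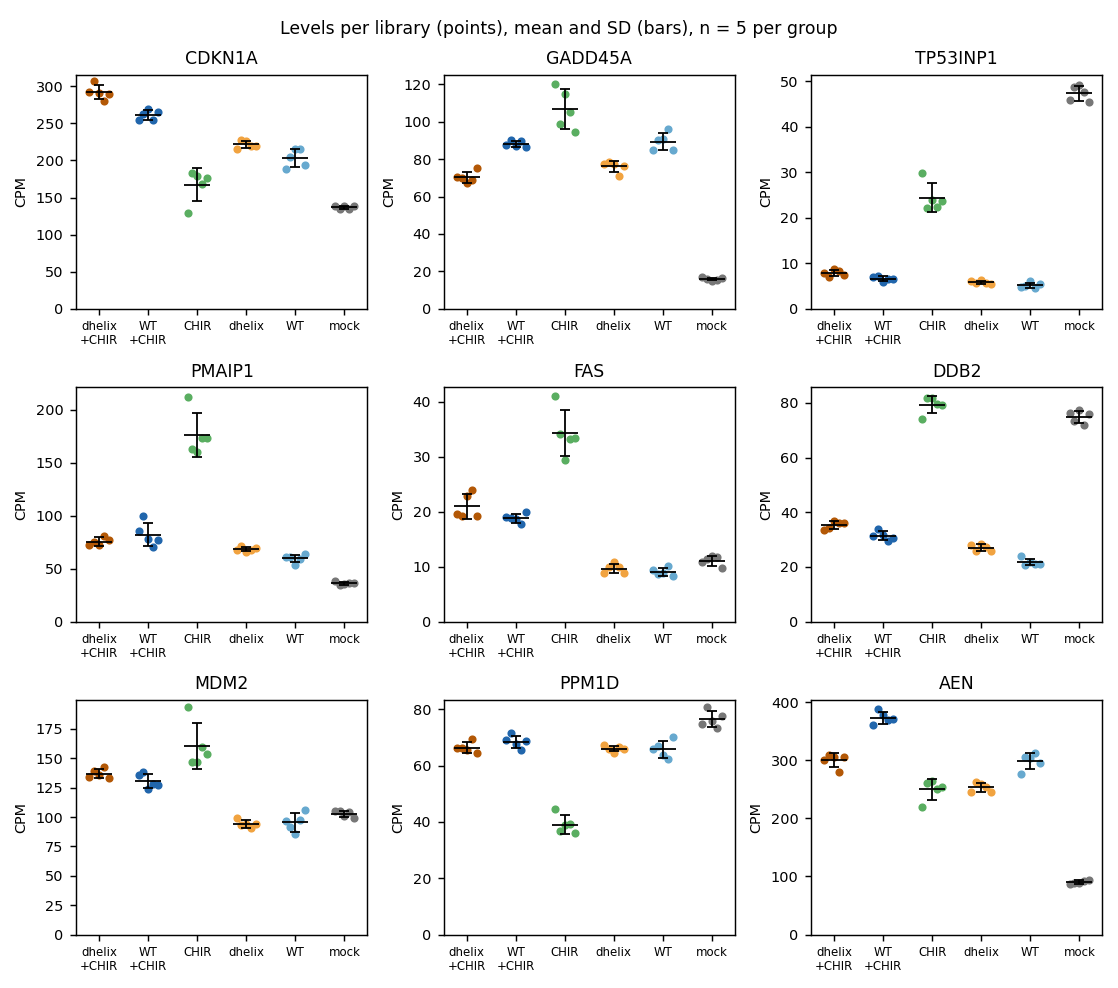
CPM of 9 members in each library (points), with the mean and SD of each group (bars, n = 5), groups from left to right dhelix+CHIR, WT+CHIR, CHIR, dhelix, WT and mock. GADD45A is at 16.8 CPM or less in mock and at 67.2 CPM or more in every other library.

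CHIR alone raised more members than it lowered. In CHIR against mock cells 19 of 31 members rose and 8 fell, where 38.8% of all genes rose and 35.3% fell. The median log2 fold change was 0.27 for the members and 0.02 over all genes. Rises of at least 2-fold were found for GADD45A, PMAIP1, FAS, AEN and ZMAT3 (5 members; 9.0% of all genes), and no member fell as far (13% of all genes); without CHIR replicate 1 the same 5 rose as far, and TP53INP1 (-1.07) and PPM1D (-1.06) fell as far. Groups did not overlap in 22 members (57.7% of all genes). Leaving out CHIR replicate 1 left all 31 calls on the same side of the threshold.

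GADD45A had 120, 99, 115, 105 and 94.5 CPM in CHIR cells, 6.71-fold above mock (log2 2.75 ± 0.06; 2.67 without CHIR replicate 1). PMAIP1 had 212, 163, 160, 173 and 173 CPM in CHIR cells, a log2 change of 2.28 ± 0.07 against mock (2.17 without CHIR replicate 1). AEN had 219, 261, 265, 250 and 254 CPM in CHIR cells, a log2 change of 1.47 ± 0.04 (1.48 without that library). These 3 genes also rose in the comparisons of FOXP2 alone, which share the mock libraries. FAS had 41, 34.1, 29.5, 33.3 and 33.5 CPM in CHIR cells, against 10.8, 11.4, 11.9, 11.7 and 9.69 CPM in mock cells, a log2 rise of 1.62 ± 0.08 (1.51 without CHIR replicate 1). ZMAT3 had 147, 115, 121, 126 and 111 CPM in CHIR cells, against 52.3, 55.3, 55.1, 56.1 and 53.5 CPM in mock cells, a log2 rise of 1.19 ± 0.05 (1.08 without that library). In both genes every CHIR library was above every mock library, and CHIR replicate 1 was the highest.

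CDKN1A had 129, 183, 179, 168 and 177 CPM in CHIR cells. Replicate 1 was below all mock libraries and the other 4 above them, so the groups overlapped; the log2 rise was 0.29 ± 0.05, and 0.33 without that library. MDM2 had 194, 147, 147, 160 and 154 CPM in CHIR cells, a log2 rise of 0.64 ± 0.05 and 0.53 without replicate 1, and all 5 CHIR libraries were above the mock libraries. Its partner MDM4, which also restrains p53, changed by 0.11 ± 0.04 on the log2 scale. FBXO22 rose by 0.65 ± 0.04 (0.57 without replicate 1), while the phosphatase gene PPM1D fell, with a log2 change of -0.97 ± 0.04 to 44.6, 36.8, 38.8, 39.1 and 36 CPM in CHIR cells, against 74.9, 80.9, 75.9, 73.4 and 77.5 CPM in mock cells. The feedback genes therefore split, with MDM2 and FBXO22 higher and PPM1D lower. PLK3 rose by 0.69 ± 0.07, CCNG1 by 0.47 ± 0.07 (0.32 without replicate 1) and BTG2 by 0.14 ± 0.04. PLK2 fell, with a log2 change of -0.53 ± 0.05. Without replicate 1 the log2 change was 0.73 for PLK3, 0.11 for BTG2 and -0.61 for PLK2, and the BTG2 call was lost when genes of low counts were kept and when the compared groups were fitted alone.

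Of the 12 death and survival members 9 rose and 2 fell with CHIR (38.8% and 35.3% of all genes). Besides those above, TRIAP1 rose by 0.71 ± 0.06, BAX by 0.49 ± 0.05, TNFRSF10B by 0.49 ± 0.03, PERP by 0.27 ± 0.06 (0.15 without replicate 1) and EDA2R by 0.21 ± 0.05 on the log2 scale. Without replicate 1 the changes were 0.61 for TRIAP1, 0.53 for BAX, 0.46 for TNFRSF10B and 0.15 for EDA2R. BBC3 passed narrowly at 0.20 ± 0.09 (adjusted p = 0.047), with 10.9, 18.7, 19.4, 15.7 and 17.7 CPM in CHIR cells; replicate 1 was the lowest, and without it the log2 change was 0.28 (adjusted p = 0.00011, edgeR). The call was lost under 6 of the 8 alternatives other than leaving out 1 library. It was also lost in 7 runs that each left out 1 library, and the calls of BTG2 and SESN1 in 3 such runs each. TP53INP1 had 29.8, 22.2, 23.9, 22.4 and 23.7 CPM in CHIR cells, a log2 change of -0.95 ± 0.06, and TP53I3 had 47.5, 65.4, 62.8, 60.5 and 68.3 CPM, a log2 change of -0.50 ± 0.06 (-1.07 for TP53INP1 and -0.45 for TP53I3 without replicate 1). RRM2B rose by 0.58 ± 0.07 (0.43 without replicate 1) and FDXR by 0.52 ± 0.07 (0.57 without it), where both fell with FOXP2. XPC fell, with a log2 change of -0.65 ± 0.03, POLH of -0.14 ± 0.04 (-0.20 without replicate 1), CMBL of -0.32 ± 0.06 and SESN1 of -0.19 ± 0.08 (-0.32 without replicate 1). DDB2 (0.08 ± 0.04), RPS27L (0.09 ± 0.05), PHLDA3 (-0.08 ± 0.08) and ACER2 (-0.04 ± 0.13) did not pass.

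FOXP2 was then set against its own control in cells that had CHIR. In dhelix+CHIR against CHIR cells 5 members rose and 24 fell (37.0% and 38.9% of all genes), and in WT+CHIR against CHIR cells 5 rose and 24 fell (38.2% and 40.2% of all genes). The median was -0.56 in dhelix+CHIR and -0.51 in WT+CHIR cells, against -0.03 over all genes in both. Falls of at least 2-fold were 5 in dhelix+CHIR (9.22% of all genes) and 7 in WT+CHIR cells (12%), and no member rose as far (12.7% and 13.8% of all genes). In each, the 5 that rose were CDKN1A, PLK3, TNFRSF10B, AEN and PPM1D. Groups did not overlap in 26 members in either comparison (56.6% of all genes for dhelix+CHIR and 60.7% for WT+CHIR). These comparisons share the CHIR libraries. Without CHIR replicate 1, 6 members rose and 24 fell in either comparison, TRIAP1 (0.18 in dhelix+CHIR and 0.20 in WT+CHIR cells) being the addition. Falls of at least 2-fold were then 4 in dhelix+CHIR cells, with CCNG1 at -0.93, and 5 in WT+CHIR cells, with PERP at -0.95 and PMAIP1 at -0.99.

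TP53INP1 had 7.85, 7.09, 8.63, 8.27 and 7.43 CPM in dhelix+CHIR cells and 6.94, 7.16, 5.96, 6.58 and 6.61 CPM in WT+CHIR cells, below every CHIR library (log2 -1.64 ± 0.07 in dhelix+CHIR cells and -1.87 ± 0.07 in WT+CHIR cells). DDB2 had 33.7, 34.1, 36.8, 36.1 and 36 CPM in dhelix+CHIR cells and 31.2, 34, 31.6, 29.5 and 30.6 CPM in WT+CHIR cells, against 74.1, 81.8, 82, 79.8 and 79.3 CPM in CHIR cells. Its log2 change was -1.17 ± 0.04 in dhelix+CHIR cells and -1.34 ± 0.04 in WT+CHIR cells, again with no overlap. TP53I3 had 27.2, 25.9, 27.2, 27 and 24.3 CPM in dhelix+CHIR cells and 24, 24.4, 25.2, 25.1 and 24.1 CPM in WT+CHIR cells, a log2 change of -1.21 ± 0.06 in dhelix+CHIR cells and -1.31 ± 0.06 in WT+CHIR cells. CCNG1 fell, with a log2 change of -1.06 ± 0.07 in dhelix+CHIR cells and -1.25 ± 0.07 in WT+CHIR cells, PERP of -0.99 ± 0.07 in dhelix+CHIR cells and -1.06 ± 0.07 in WT+CHIR cells, and CMBL of -0.98 ± 0.07 in dhelix+CHIR cells and -1.10 ± 0.07 in WT+CHIR cells. These 6 genes fell with FOXP2 in cells with and without CHIR. Without CHIR replicate 1 the log2 change was -1.54 in dhelix+CHIR and -1.76 in WT+CHIR cells for TP53INP1, and -1.18 in dhelix+CHIR and -1.33 in WT+CHIR cells for DDB2.

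PMAIP1 had 72.1, 74.9, 72, 81.2 and 77.3 CPM in dhelix+CHIR cells and 85.4, 100, 77.8, 70.8 and 76.9 CPM in WT+CHIR cells, below every CHIR library and above every mock library. Against CHIR cells its log2 change was -1.22 ± 0.07 in dhelix+CHIR cells and -1.10 ± 0.07 in WT+CHIR cells. FAS had 19.6, 19.2, 22.8, 24 and 19.2 CPM in dhelix+CHIR cells and 19, 18.9, 18.6, 17.7 and 20 CPM in WT+CHIR cells, a log2 change of -0.71 ± 0.07 in dhelix+CHIR cells and -0.86 ± 0.07 in WT+CHIR cells. GADD45A had 70.3, 70, 67.2, 68.7 and 75.1 CPM in dhelix+CHIR cells and 87.4, 90.4, 86.8, 89.6 and 86.3 CPM in WT+CHIR cells, a log2 change of -0.61 ± 0.05 in dhelix+CHIR cells and -0.28 ± 0.05 in WT+CHIR cells. All 3 genes were thus lower with FOXP2 and CHIR than with CHIR alone. Without CHIR replicate 1 the log2 change of FAS was -0.61 in dhelix+CHIR and -0.76 in WT+CHIR cells, and that of GADD45A -0.54 in dhelix+CHIR and -0.20 in WT+CHIR cells. SESN1 had 7.9, 5.92, 7.82, 8.22 and 6.25 CPM in dhelix+CHIR cells and 6.7, 6.97, 7.22, 6.74 and 7.24 CPM in WT+CHIR cells, against 16.3, 12.1, 13.5, 13 and 11.2 CPM in CHIR cells. FDXR had 70.3, 73, 77.6, 63.2 and 70 CPM in dhelix+CHIR cells and 62.1, 73.5, 67.6, 63.6 and 67.1 CPM in WT+CHIR cells, against 78.2, 120, 112, 98.9 and 118 CPM in CHIR cells. ZMAT3 had 90.9, 99.5, 97.4, 102 and 97.1 CPM in dhelix+CHIR cells and 89.3, 92.7, 86.1, 82.4 and 84.9 CPM in WT+CHIR cells. These last 3 genes fell in both comparisons, with log2 changes of -0.87 in dhelix+CHIR cells and -0.93 in WT+CHIR cells for SESN1, -0.57 in dhelix+CHIR cells and -0.66 in WT+CHIR cells for FDXR and -0.35 in dhelix+CHIR cells and -0.51 in WT+CHIR cells for ZMAT3.

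CDKN1A reached its highest levels here, with 292, 307, 291, 280 and 290 CPM in dhelix+CHIR cells and 254, 263, 269, 254 and 266 CPM in WT+CHIR cells. It rose by 0.81 ± 0.05 in dhelix+CHIR cells and 0.64 ± 0.05 in WT+CHIR cells against CHIR (0.74 and 0.59 without CHIR replicate 1). AEN had 301, 309, 306, 280 and 305 CPM in dhelix+CHIR cells and 361, 388, 377, 369 and 370 CPM in WT+CHIR cells, a rise of 0.27 ± 0.04 in dhelix+CHIR cells and 0.58 ± 0.04 in WT+CHIR cells. PLK3 had 21.3, 25, 22.4, 22.2 and 25.7 CPM in dhelix+CHIR cells and 31.1, 30.6, 36.3, 30.8 and 31.8 CPM in WT+CHIR cells, against 13.9, 18.4, 18.8, 16.7 and 18 CPM in CHIR cells. All 3 genes were above the CHIR libraries without overlap. TNFRSF10B rose by 0.14 ± 0.03 in dhelix+CHIR cells and 0.20 ± 0.03 in WT+CHIR cells. PPM1D had 66.2, 66.1, 65.6, 69.4 and 64.4 CPM in dhelix+CHIR cells and 69, 71.4, 67.7, 65.6 and 68.8 CPM in WT+CHIR cells, a rise of 0.76 ± 0.05 in dhelix+CHIR cells and 0.81 ± 0.04 in WT+CHIR cells (0.83 and 0.89 without CHIR replicate 1). MDM2 had 134, 139, 136, 143 and 133 CPM in dhelix+CHIR cells and 136, 138, 124, 128 and 127 CPM in WT+CHIR cells and fell, with a log2 change of -0.23 ± 0.05 in dhelix+CHIR cells and -0.30 ± 0.05 in WT+CHIR cells (-0.13 and -0.19 without CHIR replicate 1). PLK2 had 52.6, 51.5, 56.7, 58.3 and 56.3 CPM in dhelix+CHIR cells and 60.1, 55.2, 55.3, 58.7 and 55.7 CPM in WT+CHIR cells, against 109, 97.3, 89.4, 94 and 99 CPM in CHIR cells, a log2 change of -0.83 in dhelix+CHIR cells and -0.78 in WT+CHIR cells. BBC3 had 10.7, 11.5, 10.5, 10.9 and 11 CPM in dhelix+CHIR cells and 10.1, 13, 12.3, 11 and 12.4 CPM in WT+CHIR cells, and fell, with a log2 change of -0.59 ± 0.09 in dhelix+CHIR cells and -0.49 ± 0.09 in WT+CHIR cells, with libraries that overlapped CHIR replicate 1. BAX, PHLDA3, TRIAP1 and ACER2 also overlapped the CHIR libraries, and of these TRIAP1 and ACER2 did not pass.

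The comparisons of WT with mock cells and of WT+CHIR with CHIR cells share no library. A total of 21 of 31 members passed in the same direction in both, 17 lower and 4 higher, where 53.9% of all genes did. The 17 were BBC3, BTG2, CCNG1, CMBL, DDB2, FAS, FDXR, PERP, PHLDA3, PLK2, POLH, RPS27L, RRM2B, SESN1, TP53I3, TP53INP1 and XPC, and the 4 were AEN, CDKN1A, PLK3 and TNFRSF10B. GADD45A and PMAIP1 were higher without CHIR and lower with it, and PPM1D the reverse (12.5% of all genes passed in opposite directions). For dhelix, 23 members passed in the same direction with and without CHIR (50.4% of all genes), and BAX, FBXO22, GADD45A, PMAIP1 and PPM1D in opposite directions (13.1%).

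**Figure D4:**
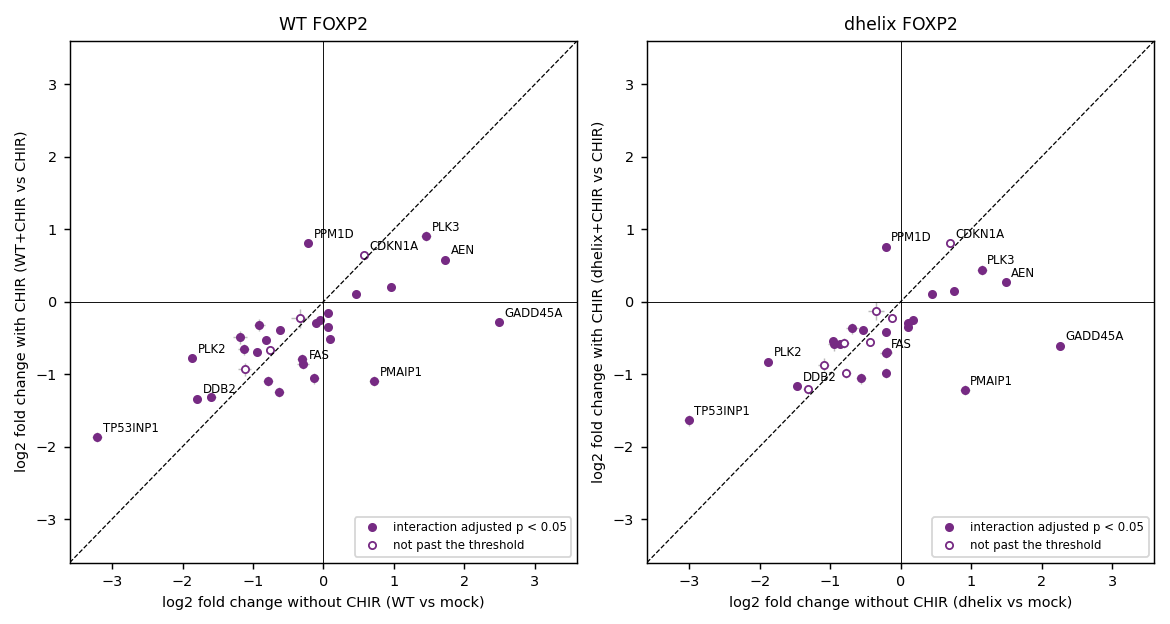
Log2 fold change of each member with FOXP2 in cells given CHIR (vertical) against that without CHIR (horizontal), for WT (left) and dhelix (right), with SE bars; filled points passed the interaction test at an adjusted p of 0.05 and the dashed line marks equal change. GADD45A and PMAIP1 lie right of 0 and below it, PPM1D lies left of 0 and above it, and CDKN1A lies next to the dashed line.

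The difference between the effects of FOXP2 with and without CHIR was tested as an interaction. For WT, 27 of 31 members passed, 11 with a more positive and 16 with a more negative effect under CHIR (30.7% and 34.9% of all genes). For dhelix, 23 passed, 9 more positive and 14 more negative (31.2% and 33.7% of all genes). The most negative terms were those of GADD45A (-2.86 ± 0.08 for dhelix and -2.76 ± 0.07 for WT), PMAIP1 (-2.14 ± 0.10 for dhelix and -1.82 ± 0.10 for WT), AEN (-1.23 ± 0.06 for dhelix and -1.15 ± 0.06 for WT) and PERP (-0.77 ± 0.09 for dhelix and -0.93 ± 0.09 for WT). GADD45A and AEN show the form this took: each was raised by FOXP2 alone and by CHIR alone, and with both together stood below the level that adding the log2 changes gives. GADD45A with both stood below its level with CHIR alone, and AEN above it. GADD45A, PMAIP1 and FAS were highest on average with CHIR alone, as were other members such as CCNG1, RRM2B and MDM2. The most positive terms were those of TP53INP1 (1.37 ± 0.10 for dhelix and 1.33 ± 0.11 for WT), PLK2 (1.05 ± 0.07 for dhelix and 1.08 ± 0.08 for WT) and PPM1D (0.98 ± 0.06 for dhelix and 1.03 ± 0.06 for WT). These 3 genes were lowered both by CHIR alone and by FOXP2 alone, and in cells with both they stood above the level that adding the log2 changes gives.

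CDKN1A did not pass either interaction. Its term was 0.11 ± 0.08 for dhelix (95% interval -0.04 to 0.26, adjusted p = 0.22) and 0.07 ± 0.08 for WT (-0.08 to 0.22, adjusted p = 0.44). RPS27L (0.10 ± 0.07), SESN1 (0.19 ± 0.12) and ACER2 (0.11 ± 0.18) also did not pass for WT. With WT, all 12 death and survival members passed (4 more positive and 8 more negative), as did all 4 repair and all 3 feedback members, where 65.6% of all genes passed. MDM2's term for WT was -0.19 ± 0.08. It did not pass in 9 runs that left out 1 library, among them that without CHIR replicate 1 (-0.09, adjusted p = 0.12, edgeR). Under 5 settings other than leaving out 1 library it did not pass either. Without CHIR replicate 1, SESN1 (0.30) and RPS27L (0.18) passed for WT, and SESN1 (0.30) and CMBL (-0.24) for dhelix. POLH passed for dhelix at 0.14 ± 0.06. It lost the call in 9 runs that left out 1 library and under 2 other settings.

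Cells with and without CHIR were also compared within each FOXP2 construct. FOXP2 itself was higher with CHIR, by 1.34 ± 0.09 in dhelix and 1.11 ± 0.09 in WT cells on the log2 scale. The part of that level in these differences, and in the interactions above, was not tested. In WT+CHIR against WT cells 17 members rose and 5 fell (34.8% and 30.2% of all genes), with a median of 0.23 against 0.04 over all genes, and 64.9% of all genes changed in either direction. In dhelix+CHIR against dhelix cells 14 rose and 6 fell (34.1% and 29.1% of all genes), with a median of 0.14 against 0.04. FAS was the 1 member that rose at least 2-fold in either (8.55% of all genes in dhelix and 9.76% in WT cells; 3.29% and 3.35% fell as far, and no member did), by 1.12 ± 0.08 in dhelix and 1.05 ± 0.08 in WT cells. FDXR rose by 0.74 ± 0.07 in dhelix cells and 0.98 ± 0.08 in WT cells, BBC3 by 0.55 ± 0.10 in dhelix cells and 0.90 ± 0.10 in WT cells, ZMAT3 by 0.74 ± 0.05 in dhelix cells and 0.59 ± 0.05 in WT cells, and MDM2 by 0.54 ± 0.05 in dhelix cells and 0.45 ± 0.05 in WT cells. CDKN1A rose by 0.40 ± 0.05 in dhelix cells and 0.36 ± 0.05 in WT cells. GADD45A, which CHIR raised in mock cells, was -0.12 ± 0.05 (adjusted p = 0.04) in dhelix and -0.02 ± 0.05 (adjusted p = 0.76) in WT cells. PERP fell, with a log2 change of -0.51 ± 0.07 in dhelix cells and -0.66 ± 0.07 in WT cells, CMBL of -0.53 ± 0.07 in dhelix cells and -0.63 ± 0.07 in WT cells, XPC of -0.38 ± 0.03 in dhelix cells and -0.37 ± 0.03 in WT cells, and TP53I3 of -0.38 ± 0.06 in dhelix cells and -0.22 ± 0.06 in WT cells.

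CHIR against mock and WT+CHIR against WT share no library, and 15 members passed in the same direction in both (34.1% of all genes), AEN, BAX, BBC3, BTG2, CDKN1A, FAS, FBXO22, FDXR, MDM2, PMAIP1, TRIAP1 and ZMAT3 higher and CMBL, TP53I3 and XPC lower. PERP and TNFRSF10B rose with CHIR in mock cells and fell in WT cells, and PLK2 and TP53INP1 did the reverse (16.2% of all genes passed in opposite directions). With dhelix 13 members passed in the same direction (33.8%), and GADD45A joined those 4 in opposite directions (15.5%). AEN, BBC3, BTG2, CDKN1A, FAS, FBXO22, FDXR, MDM2, TRIAP1 and ZMAT3 were called higher with CHIR in mock, dhelix and WT cells. In mock cells the calls of BBC3 and BTG2 did not hold under every setting, as given above.

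Removing residues 264 to 272 from FOXP2 had small effects on the members. In dhelix against WT cells 6 members rose, 5 fell and 20 did not pass (16.9% and 18.7% of all genes rose and fell), and no change reached 2-fold (1.87% of all genes rose and 0.698% fell as far). Libraries did not overlap in 13 members (29.9% of all genes). DDB2 rose by 0.32 ± 0.05, RPS27L by 0.32 ± 0.05, FDXR by 0.32 ± 0.08, TP53I3 by 0.26 ± 0.06, PHLDA3 by 0.22 ± 0.08 and PMAIP1 by 0.19 ± 0.07 on the log2 scale. PLK3 fell, with a log2 change of -0.31 ± 0.06, AEN of -0.24 ± 0.04, GADD45A of -0.23 ± 0.05, TNFRSF10B of -0.20 ± 0.03 and EDA2R of -0.16 ± 0.05. FOXP2 itself was lower in dhelix cells (4660 to 6360 CPM) than in WT cells (5910 to 7810 CPM), with -0.41 as its log2 change (adjusted p = 0.00034), and the part of that level in these differences was not tested.

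In dhelix+CHIR against WT+CHIR cells 6 members rose, 5 fell and 20 did not pass (16.6% and 13.9% of all genes rose and fell). Again no change reached 2-fold (1.53% of all genes rose and 0.628% fell as far), and libraries did not overlap in 6 members (24.5% of all genes). DDB2 was higher and AEN, EDA2R, GADD45A and PLK3 lower in both comparisons, which share no library (15.2% of all genes passed in the same direction and 1.23% in opposite directions). With CHIR the log2 change was 0.17 ± 0.05 for DDB2, -0.46 ± 0.06 for PLK3, -0.33 ± 0.05 for GADD45A and -0.31 ± 0.04 for AEN. TP53INP1, CCNG1, BTG2, CDKN1A and ZMAT3 rose, by 0.24, 0.18, 0.17, 0.16 and 0.16, and BAX fell, with a log2 change of -0.14. For MDM2 the difference was -0.02 without CHIR (95% interval -0.13 to 0.09) and 0.07 with it (-0.04 to 0.18), and for PLK2 -0.02 (-0.13 to 0.09) and -0.05 (-0.16 to 0.06). The effect of the deletion differed with and without CHIR in 3 members (1 more positive and 2 more negative under CHIR; 8.93% and 5.29% of all genes), TNFRSF10B (0.14 ± 0.04), RPS27L (-0.22 ± 0.07) and PMAIP1 (-0.32 ± 0.10). The call of TNFRSF10B was lost when genes of low counts were kept (0.07, adjusted p = 0.72, edgeR), with a mean of at least 1 CPM in a group (0.11, adjusted p = 0.074) and without any 1 of 14 libraries. In dhelix+CHIR against WT+CHIR, BTG2, DDB2 and TP53INP1 lost their calls when genes of low counts were kept. TP53INP1 lost its call under 2 settings in all other than leaving out 1 library, and CCNG1 under 3. With 1 library left out, the call was lost in 8 runs for CCNG1 and 6 for TP53INP1. It was lost in 3 runs each for BAX and ZMAT3 and in 2 for CDKN1A. In dhelix against WT, EDA2R lost its call under 1 setting other than leaving out 1 library. PHLDA3 and PMAIP1 lost theirs there in 3 and 2 runs that left out 1 library. The counts of members called depend on the libraries and settings used. The 11 members of dhelix+CHIR against WT+CHIR became 7 without dhelix+CHIR replicate 4, and the 3 interactions became 8 without the 3 libraries that stood apart.

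**Figure D5:**
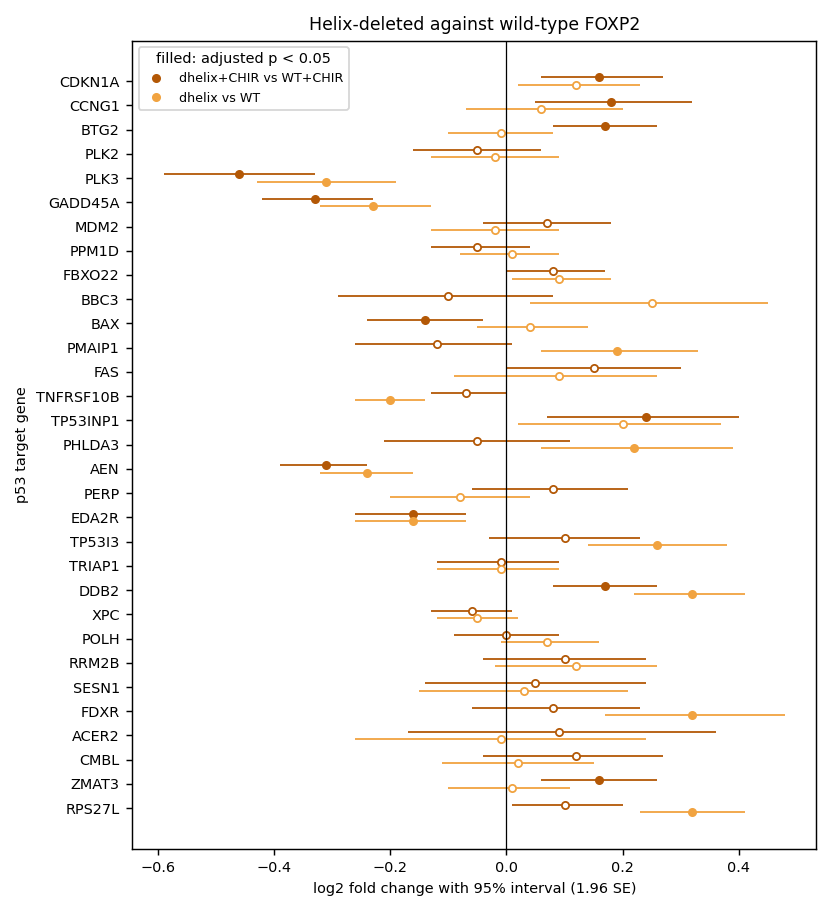
Log2 fold change of each member with dhelix against WT FOXP2, in cells given CHIR and in cells without it; lines are 95% intervals and filled points passed an adjusted p of 0.05. All points lie between -0.46 and 0.32, and PLK3, GADD45A and AEN lie left of 0 in both comparisons.

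Genes around the members were counted in 3 further lists. Of 23 tested regulators and cofactors of p53, 9 rose and 9 fell in dhelix against mock, 12 rose and 7 fell in WT against mock and 10 rose and 8 fell in CHIR against mock cells, with medians of 0.00, 0.12 and 0.01, where 80.5%, 81.6% and 74.1% of all genes changed in either direction. Over all genes the median was -0.02 in the first 2 of these comparisons and 0.02 in the last, and 0.04 for CHIR within FOXP2 cells. Log2 changes in this list ran from -1.47 to 0.75 with dhelix, -1.74 to 1.88 with WT and -1.51 to 0.74 with CHIR. The largest rise with WT is not among the genes named here. TP73, the p53 relative that binds similar sites, fell, with a log2 change of -1.47 ± 0.09 with dhelix, -1.74 ± 0.09 with WT and -1.46 ± 0.09 with CHIR. ATM, the kinase that signals double-strand breaks to p53, fell, with a log2 change of -0.75 ± 0.06 with dhelix and -0.75 ± 0.06 with WT against mock, and of -0.13 ± 0.06 with CHIR. RCHY1 (PIRH2), a ubiquitin ligase for p53, rose by 0.73 ± 0.06 with dhelix, 0.90 ± 0.06 with WT and 0.43 ± 0.07 with CHIR, and USP7, which deubiquitinates MDM2 and p53, by 0.50 ± 0.04 with dhelix, 0.76 ± 0.04 with WT and 0.26 ± 0.04 with CHIR. MDM4 was -0.32 ± 0.04 with dhelix (adjusted p = 2e-08) and -0.05 ± 0.04 with WT (adjusted p = 0.29).

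Of 35 other tested p53 targets outside the members, 13 rose and 18 fell in dhelix against mock, 16 rose and 18 fell in WT against mock and 13 rose and 13 fell in CHIR against mock cells, with medians of -0.21, -0.16 and 0.09. Of all genes 39.6% rose and 40.9% fell with dhelix, 39.9% rose and 41.6% fell with WT, and 38.8% rose and 35.3% fell with CHIR. Those with the largest falls under WT were TRIM22 (-3.30 ± 0.11), NINJ1 (-2.58 ± 0.11) and FUCA1 (-1.81 ± 0.09). SESN2, a sestrin like the member SESN1, rose in each (1.35 ± 0.07 with dhelix, 1.81 ± 0.07 with WT and 1.73 ± 0.07 with CHIR), while SESN1 fell in each. SFN (14-3-3 sigma), which holds cells at G2, rose by 0.97 ± 0.06 with dhelix, 0.65 ± 0.06 with WT and 1.72 ± 0.06 with CHIR. BID, a BH3-only protein, rose by 1.64 ± 0.06 with dhelix, 1.44 ± 0.06 with WT and 0.51 ± 0.07 with CHIR. The largest rises of this list with FOXP2, 4.09 with dhelix and 4.88 with WT, are not among the genes named here. With CHIR 4 genes of this list rose and 6 fell at least 2-fold (9.0% and 13% of all genes), the lowest at -1.89. The genes given a CHIR value here are all among those that rose.

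The genes that p21 lowers through the DREAM complex and E2F are cell cycle genes. Of 22 tested, 8 rose and 8 fell in dhelix against mock and 8 rose and 10 fell in WT against mock cells, with medians of 0.00 and -0.04 (39.6% of all genes rose and 40.9% fell with dhelix, 39.9% and 41.6% with WT). In CHIR against mock cells 1 rose and 18 fell (median -0.31; 38.8% and 35.3% of all genes). With CHIR in FOXP2 cells 1 rose and 21 fell in dhelix+CHIR against dhelix (median -0.57; 34.1% and 29.1% of all genes), and 0 rose and 21 fell in WT+CHIR against WT (median -0.50; 34.8% and 30.2%). Against CHIR cells 5 rose and 13 fell in dhelix+CHIR (median -0.38; 37.0% and 38.9% of all genes) and 5 rose and 15 fell in WT+CHIR cells (median -0.40; 38.2% and 40.2%), where the median of all genes was -0.03. KIF20A, a kinesin of cytokinesis, fell, with a log2 change of -1.23 ± 0.04 in dhelix and -1.18 ± 0.04 in WT cells under CHIR, and of -1.17 ± 0.04 in mock cells. CCNA2 (cyclin A2) fell, with a log2 change of -1.07 ± 0.04 in dhelix cells, -1.02 ± 0.04 in WT cells and -0.38 ± 0.04 in mock cells, and TOP2A of -0.95 ± 0.05 in dhelix cells, -1.05 ± 0.05 in WT cells and -0.49 ± 0.05 in mock cells. With FOXP2 alone CDC25A, a phosphatase that drives S phase entry, rose by 1.14 ± 0.04 with dhelix and 1.36 ± 0.04 with WT, and AURKA by 0.68 ± 0.03 with dhelix and 0.65 ± 0.03 with WT. KIF20A and TOP2A fell with FOXP2 alone too. The log2 change was -0.82 ± 0.04 with dhelix and -0.87 ± 0.04 with WT for KIF20A, and -0.48 ± 0.05 and -0.63 ± 0.05 for TOP2A. CDKN1A was higher in all of these comparisons, and its part in the levels of these genes was not tested.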

How the data were processed

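The files hold read counts per gene, made by the authors with STAR 2.6.1a and featureCounts (Subread) on hg19, per the submitters' processing notes. The strand setting is not given in the sources used here, and reads carry no molecular identifiers. Genes with too few counts were left out by edgeR's filter, and 18485 genes holding 99.9% of counts were fitted. Counts were scaled by TMM and tested with edgeR 4.0.16 (R 4.3.3, robust quasi-likelihood, all 6 groups in 1 fit) in 9 comparisons and 3 interactions. p-values were adjusted over all genes (Benjamini-Hochberg, threshold 0.05), and they measure the spread between these libraries. SE is the log2 fold change divided by the root of F. The biological coefficient of variation was 5.62%, and no replicate pair agreed within sampling noise. Alternatives used DESeq2 1.42.0, its size factors, other filters and fits, a replicate block, and left-out libraries. Every member and MDM4 are described, with all sample values for CDKN1A, MDM2 and members changed at least 2-fold without overlap in dhelix, WT or CHIR against mock, and up to 4 called genes a direction from each pathway list. The members, lists and rules were chosen with earlier results of these data known. Results for some other genes of the lists are not reported here.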

Additional observations from a re-analysis of the deposited data

Results flagged for a closer look

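The 5 libraries of each group were searched for a single library far from the others, by a rule (Dixon's ratio) that chance meets in about 1 in 20 groups. Of 204 sets of 5 libraries (34 genes in 6 groups), 23 met it, 13 of them in the CHIR group and 10 of those in CHIR replicate 1. In CHIR replicate 1 the highest or lowest value belonged to CCNG1 (271 CPM, others 185 to 204), CDKN1A (129 CPM, others 168 to 183), FBXO22 (100 CPM, others 84.2 to 87.9), MDM2 (194 CPM, others 147 to 160), PERP (36.7 CPM, others 27.5 to 29.7), PMAIP1 (212 CPM, others 160 to 173), RPS27L (177 CPM, others 145 to 153), RRM2B (192 CPM, others 128 to 144), TP53INP1 (29.8 CPM, others 22.2 to 23.9) and TRIAP1 (47.8 CPM, others 38.1 to 40.9). CDKN1A was the lowest of its group there and the others the highest. Elsewhere in the CHIR group, a single library stood apart for ACER2 (4.11 CPM, others 2.88 to 3.15), CMBL (20.3 CPM, others 16.2 to 16.6) and SPATA18 (0.119 CPM, others 0). In dhelix+CHIR cells the genes were AEN (280 CPM, others 301 to 309) and RRM2B (98 CPM, others 88.2 to 90.1). In WT+CHIR cells the genes were CCNG1 (98.3 CPM, others 82.9 to 87.2) and PLK3 (36.3 CPM, others 30.6 to 31.8). In dhelix cells the gene was GADD45A (70.9 CPM, others 76.4 to 78.4). In WT cells the gene was TNFRSF10B (149 CPM, others 140). In mock cells the genes were ACER2 (4.04 CPM, others 3.04 to 3.23), CMBL (23.6 CPM, others 20.7 to 21.4), RPS27L (127 CPM, others 147 to 154) and XPC (100 CPM, others 95.5 to 96.1).

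The effect of dhelix differed between cells with and without CHIR, by the interaction test of edgeR (adjusted p under 0.05), in 23 members. The log2 difference, with CHIR minus without, was positive for TP53INP1 (1.37), PLK2 (1.05), PPM1D (0.98), BTG2 (0.42), BBC3 (0.35), PHLDA3 (0.32), DDB2 (0.30), XPC (0.27) and POLH (0.14). It was negative for GADD45A (-2.86), PMAIP1 (-2.14), AEN (-1.23), PERP (-0.77), PLK3 (-0.71), TNFRSF10B (-0.62), FAS (-0.50), RRM2B (-0.50), CCNG1 (-0.50), ZMAT3 (-0.44), FBXO22 (-0.43), BAX (-0.41), TRIAP1 (-0.35) and EDA2R (-0.21). The effect of WT FOXP2 differed in 27 members by the same test. The log2 difference, with CHIR minus without, was positive for TP53INP1 (1.33), PLK2 (1.08), PPM1D (1.03), BBC3 (0.70), PHLDA3 (0.59), FDXR (0.47), DDB2 (0.45), XPC (0.28), TP53I3 (0.28), BTG2 (0.25) and POLH (0.21). It was negative for GADD45A (-2.76), PMAIP1 (-1.82), AEN (-1.15), PERP (-0.93), TNFRSF10B (-0.75), CCNG1 (-0.62), ZMAT3 (-0.60), FAS (-0.57), PLK3 (-0.56), RRM2B (-0.48), FBXO22 (-0.42), TRIAP1 (-0.35), CMBL (-0.31), BAX (-0.22), EDA2R (-0.21) and MDM2 (-0.19). The effect of the helix deletion differed in 3 members. The log2 difference, with CHIR minus without, was positive for TNFRSF10B (0.14). It was negative for PMAIP1 (-0.32) and RPS27L (-0.22).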

How the results depend on the processing

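No member changed direction with a call under any alternative tried. Over all results of single genes, 7332 kept their side of the threshold, 142 passed it newly and 152 lost it. The number of members called stayed within 1.5 times for 10 of the 12 comparisons and interactions. For the interaction of helix deletion with CHIR, 3 members became 6 when genes of low counts were kept, 9 when the compared groups were fitted alone and 8 without the 3 libraries that stood apart, and leaving out 1 library at a time gave 2 to 4. For dhelix+CHIR against WT+CHIR, 11 members became 7 to 10 when 1 library was left out, with 7 without dhelix+CHIR replicate 4. The cause was not tested. Leaving out 1 library at a time gave 24 to 27 members for WT against mock, 27 to 29 for dhelix against mock, 24 to 27 for CHIR against mock, and 29 to 30 for either FOXP2 with CHIR against CHIR. Whether the replicate numbers pair the libraries was not settled. Of 75 same-numbered pairs, 20 had a correlation of deviations over 0.1 (median 0.0193, range -0.379 to 0.436). Pairs with different numbers had a median of 0.00361. In 39 of 150 library-by-group cases a library correlated best with its own number. A replicate block added 7 calls and lost 0, among them MDM2 in WT against mock (-0.11, adjusted p = 0.049, edgeR). Of calls near the threshold, BBC3 in CHIR against mock was lost under 6 settings and PERP in WT against mock under 4. With 1 library left out, the call was lost in 7 runs for BBC3 and 6 for PERP. Genes with low counts, such as ACER2 and SPATA18, are limited by depth.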
